A study of Mus musculus with 10 samples.

Results

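Heparan sulphate is a sulphated sugar chain that cells build on a small set of core proteins, and 35 of the 47643 genes listed for each library encode its synthesis enzymes, its extracellular editing enzymes and its main cell-surface carriers, the syndecans and glypicans. They were taken by gene name and comprise 5 linker genes, 5 polymerisation genes, 12 modification genes, 3 remodelling genes, 6 glypicans and 4 syndecans. The set was selected on the scaled read level of Extl1, an exostosin-like gene that was higher in MRC than in MCi libraries, so the Extl1 difference is described without a test. Of the 35 genes, 30 had enough exon reads to enter the fit over 12127 genes, and the other 5 are reported by their reads.

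The study compared bulk RNA-seq of mesenchymal cells that were flow-sorted out of Peyer's patches, the lymphoid follicles of the small intestine, of wild-type C57BL/6 mice, with no engineered allele or added agent named for either group. Cells of both groups were negative for CD45 (leukocytes), EpCAM1 (epithelium), TER119 (red cells) and CD31 (endothelium) and positive for Podoplanin. The MRC group was also MAdCAM1-positive and the MCi group MAdCAM1-negative, with 5 libraries of each. The labels do not say whether libraries came from separate animals, or give the age of the mice. P values therefore measure the spread between these libraries, which may be technical.

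A heparan sulphate chain starts with a short linker of sugars on a serine of the core protein, is lengthened by the exostosin polymerases, and is then patterned by deacetylation, epimerisation and sulphation in the Golgi. The pattern of sulphate groups sets which growth factors, chemokines and morphogens bind. At the cell surface, sulfatases trim the pattern, heparanase cuts the chain, and the core proteins hold it at the membrane: syndecans span the membrane and glypicans are tethered by a lipid anchor. In lymphoid stroma such chains are known for holding chemokines near the cells that make them.

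Libraries held 3941032 to 8738115 exon reads, so that 3 reads corresponded to 0.311 to 0.777 CPM, the exon reads of a gene over the TMM-scaled total of its library. The gate gene Madcam1 lay between 30.4 and 86.1 CPM in MRC and between 0 and 2.38 CPM in MCi. All 10 mesenchymal markers were detected in every library, at a sum of 29011 to 139790 CPM in MRC and 50328 to 81390 CPM in MCi. Of the 10, 1 was lower in all MRC than in all MCi libraries and 0 were higher. That 1 was Pdgfra, with 269 to 934 CPM in MRC and 1161 to 2357 CPM in MCi. Pdpn, the gene of Podoplanin, had 81.5, 77.7, 64.4, 21.4 and 25.6 CPM in MRC, against 58.3 to 96.2 CPM in MCi. MRC4 and MRC5 stood apart. Their mesenchymal sums were 29011 and 29641 CPM, the lowest of the 10, and the sum of 15 epithelial genes was 16977 and 21238 CPM there, against 13.1 to 2562 CPM in MRC1 to MRC3 and 17.7 to 1451 CPM in MCi. Epcam, the gene of the antigen gated out, had 910 and 861 CPM in MRC4 and MRC5, against 0.239, 23.3 and 107 CPM in MRC1 to MRC3 and 0 to 69.4 CPM in MCi. Fold changes of the members and of the further pathway genes named below are therefore also given for MRC1 to MRC3 against the 5 MCi libraries. In both groups libraries 4 and 5 held the most exon reads (7004048 and 6142562 in MRC, 6603603 and 8738115 in MCi). The correlation of MCi4 with MCi5 was 0.973, against 0.872 to 0.941 for the other pairs of MCi libraries. MCi4 and MCi5 stay in the comparison with MRC1 to MRC3, which is therefore not balanced for library number. Sums were lower in all 5 MRC than in all 5 MCi libraries for 7 mesothelial genes (0.478 to 11.5 CPM in MRC, 19.1 to 817 CPM in MCi), for 10 smooth muscle and pericyte genes (1054 to 2052 CPM in MRC, 2830 to 5006 CPM in MCi) and for 3 genes of interstitial cells of Cajal (21.0 to 52.4 CPM in MRC, 59.2 to 124 CPM in MCi). Sums overlapped between the groups for 8 glial genes (6.69 to 396 CPM in MRC, 180 to 572 CPM in MCi), 6 endothelial genes (2.36 to 19.3 CPM in MRC, 5.18 to 26.7 CPM in MCi) and 7 leukocyte genes (37.0 to 312 CPM in MRC, 29.1 to 188 CPM in MCi). Among MRC libraries the glial sum reached the MCi range only in MRC4 and MRC5 (291 and 396 CPM), where 4 of the 8 genes were at 0. Of the glial genes, 3 were lower in all 5 MRC than in all 5 MCi libraries. Sox10, 1 of them, had 0 to 13.0 CPM in MRC and 26.2 to 85.4 CPM in MCi. In bulk libraries fewer cells of a type and less RNA per cell cannot be told apart, and the part that other cell types had in the differences below was not tested.

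Most of the machinery was expressed in both populations. The deposited RPKM values (reads scaled by exon length and by the mapped reads of the library) compare levels between genes, and they are read here within a group only. Sdc2, the syndecan typical of mesenchymal cells, was the highest member in both groups, at a mean of 125 RPKM in MRC and 163 RPKM in MCi. In MRC the next were Gpc3 at 93.0 RPKM and Sulf2 at 64.2 RPKM, and in MCi Gpc3 at 56.1 RPKM and Sulf2 at 56.0 RPKM. The enzyme gene next after Sulf2 was the polymerase subunit gene Ext2, at 31.5 RPKM in MRC and 36.8 RPKM in MCi. The lowest tested members were Xylt1 (0.578 RPKM in MRC, 0.756 RPKM in MCi) and Ndst3 (0.423 RPKM in MRC, 0.564 RPKM in MCi). Extl1 was near that lower end, at 3.68 RPKM in MRC and 1.32 RPKM in MCi.

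**Figure D1:**
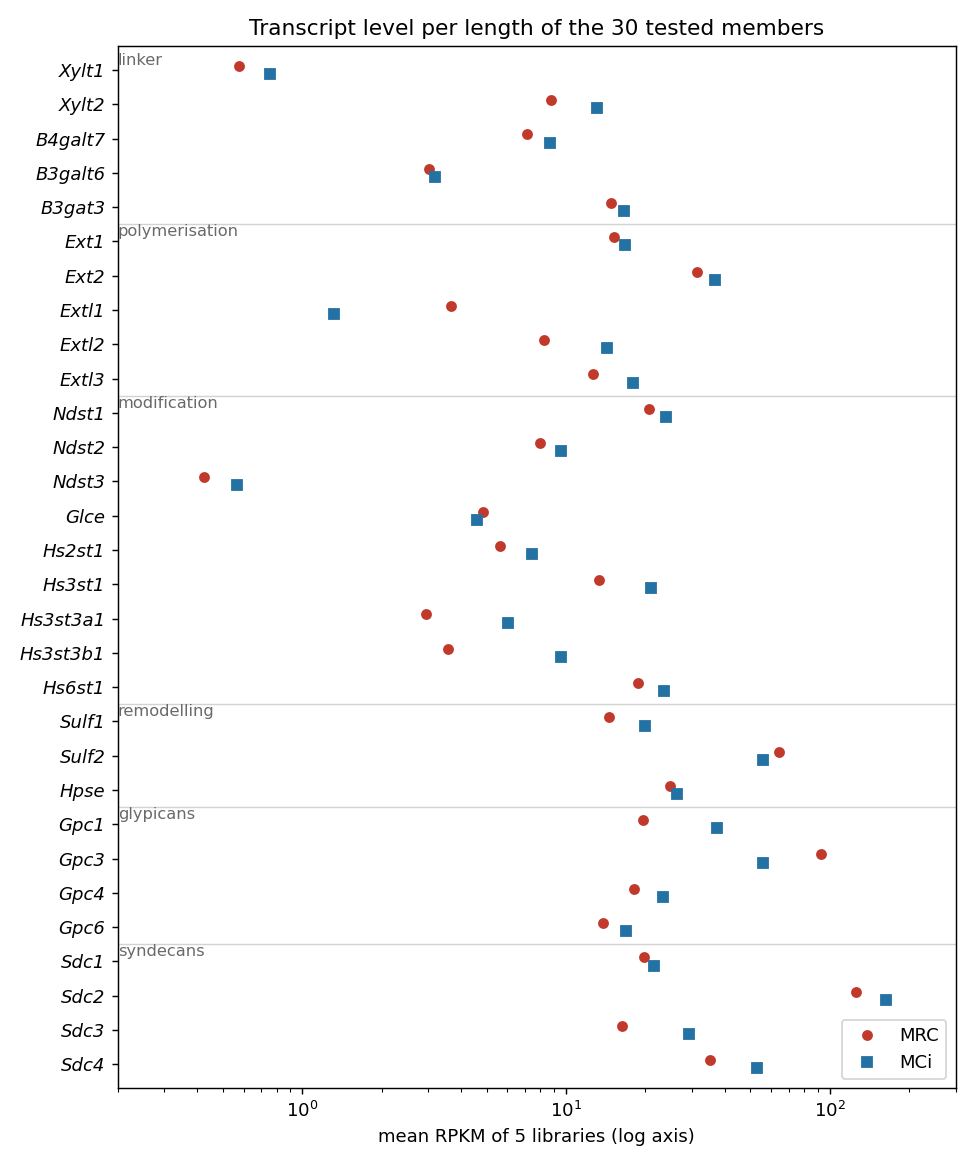
Mean deposited RPKM of each member on a log axis, by role, with MRC and MCi drawn as separate points. Sdc2 leads in both groups, at 125 RPKM in MRC and 163 RPKM in MCi, and Extl1 lies among the low members at 3.68 RPKM in MRC and 1.32 RPKM in MCi.

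The 5 members below the read filter were barely detected. Over the 5 libraries of a group, Ndst4 had 2 exon reads in MRC and 7 in MCi, Hs6st2 had 3 in MRC and 18 in MCi, and Hs6st3 had 1 in MRC and 3 in MCi. Among the glypicans, Gpc2 had 11 exon reads in MRC and 28 in MCi, and Gpc5 had 2 in each group. Only 15.4% of Gpc2 exon reads mapped uniquely. Gpc2 overlaps Gm43720 on the same strand, which had 30 exon reads over the 10 libraries, so the Gpc2 count is less certain. Gpc5 also had 100 intron reads in MRC and 94 in MCi, and Hs6st3 had 85 intron reads in MRC and 63 in MCi. Differences in these 5 genes were not detectable at this depth.

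The promoter sequences of the 3 genes on which the results turn most are printed here because each gene differs between the populations in all 5 or in the first 3 MRC libraries. They come from RefSeq (GRCm38.p6), cover the 250 bases before the annotated start, and run 5′ to 3′ on the strand of the gene, which is the minus strand for all 3. Capitals mark CCAAT and GGGCGG on either strand, so that ATTGG and CCGCCC are their reverse complements. The Extl1 window is chr4:134372548-134372797, the Hs3st3b1 window chr11:63922285-63922534 and the Gpc3 window chrX:52613975-52614224.
Extl1: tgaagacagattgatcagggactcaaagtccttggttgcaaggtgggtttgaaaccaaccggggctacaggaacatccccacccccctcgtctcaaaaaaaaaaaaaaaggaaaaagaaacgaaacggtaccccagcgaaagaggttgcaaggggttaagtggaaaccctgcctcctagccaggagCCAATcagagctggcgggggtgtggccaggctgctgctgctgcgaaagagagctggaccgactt
Hs3st3b1: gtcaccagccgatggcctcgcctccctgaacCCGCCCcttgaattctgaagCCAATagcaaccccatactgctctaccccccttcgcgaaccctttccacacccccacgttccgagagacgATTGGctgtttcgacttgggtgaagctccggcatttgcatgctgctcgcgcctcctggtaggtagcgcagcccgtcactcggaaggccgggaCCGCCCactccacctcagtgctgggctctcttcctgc
Gpc3: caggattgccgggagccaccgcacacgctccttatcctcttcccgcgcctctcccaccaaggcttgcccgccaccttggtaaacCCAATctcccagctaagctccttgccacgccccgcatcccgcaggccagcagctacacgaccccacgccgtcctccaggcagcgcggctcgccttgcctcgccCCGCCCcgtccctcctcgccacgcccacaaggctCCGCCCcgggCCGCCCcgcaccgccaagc
The Extl1 window held 1 CCAAT, 0 GGGCGG and 8 CG dinucleotides, against a median of 6 CG over 32851 RefSeq promoters. The Hs3st3b1 window held 2 CCAAT, 2 GGGCGG and 17 CG, and the Gpc3 window 1 CCAAT, 3 GGGCGG and 25 CG. Of all promoters of this length, 33.8% hold CCAAT and 32.7% hold GGGCGG. None of the 3 windows held TATAAA, found in 12.4% of promoters, or TGACTCA, found in 4.46%, on either strand. In these windows 0 bases were covered by more than 1 of these motifs. RefSeq places the start of Extl1 inside the gene as the deposited tables give it, so the window may lie downstream of another start. Of the 35 genes, 26 had a promoter in the RefSeq table.

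Extl1 encodes an exostosin-like glycosyltransferase that can add N-acetylglucosamine to a growing chain. Its identifier is ENSMUSG00000028838 and it lies at chr4:134356372-134383850 on the minus strand (GRCm38), with 4333 bases of exon. The 5 MRC libraries held 21.3, 15.3, 19.0, 18.7 and 18.3 CPM, against 4.28, 8.42, 6.22, 5.13 and 4.25 CPM in the 5 MCi libraries. Every MRC library was above every MCi library, the lowest MRC value being MRC2 and the highest MCi value MCi2. The means were 18.5 ± 2.14 CPM in MRC and 5.66 ± 1.74 CPM in MCi (SD, n = 5 each), a ratio of 3.27. The fitted log2 fold change was 1.71 ± 0.25 (SE) and 1.72 ± 0.29 without MRC4 and MRC5. These values rest on 446 exon reads in MRC and 161 in MCi, of which 130 in MRC and 57 in MCi crossed an exon junction. MRC4 and MRC5 lay within the range of MRC1 to MRC3 for this gene. Replicates 1 to 3 alone gave 1.55, and replicates 4 and 5 alone gave 1.91.

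Of the other 4 polymerisation genes, 0 passed edgeR's or DESeq2's test, and 0 had an unadjusted p under 0.05 with either tool, in the fits of all 10 libraries. Of all genes, edgeR called 0.437% and DESeq2 7.16% there, and 16.7% had an unadjusted edgeR p under 0.05. A count of 0 among 4 genes does not set them apart from those shares. In the fits without MRC4 and MRC5, Ext1 had an unadjusted p under 0.05 and did not pass either test. Ext1 and Ext2 encode the subunits of the chain polymerase. Ext2 had 350, 368, 223, 157 and 225 CPM in MRC, against 229, 219, 303, 350 and 222 CPM in MCi. The groups overlapped fully, with the lowest value in MRC4 and the highest in MRC2, and both means were 265 CPM. The log2 fold change of Ext2 was -0.0021 ± 0.26 (edgeR adjusted p = 0.998), and 0.25 without MRC4 and MRC5 (adjusted p = 0.725). That of Ext1 was 0.080 ± 0.23 (adjusted p = 0.906), and 0.37 without those libraries (adjusted p = 0.355), with means of 141 ± 46.6 CPM in MRC and 133 ± 16.1 CPM in MCi.

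Extl2, whose product can cap a nascent chain, had 43.5, 45.3, 38.0, 15.3 and 19.5 CPM in MRC, against 46.6, 38.8, 57.0, 48.6 and 51.5 CPM in MCi. The 2 lowest libraries of the 10 were MRC4 and MRC5, and the other MRC libraries overlapped MCi. Its log2 fold change was -0.59 ± 0.30 (edgeR adjusted p = 0.358) with all libraries and -0.20 without MRC4 and MRC5 (adjusted p = 0.695). Extl3, which starts the chain on the linker, had 102, 128, 103, 41.4 and 55.6 CPM in MRC, against 139, 87.3, 116, 94.9 and 91.1 CPM in MCi. Here too MRC4 and MRC5 were the lowest, the groups overlapped, and the log2 fold change was -0.30 ± 0.30 (adjusted p = 0.673), and 0.073 without them (adjusted p = 0.915). As a share of the summed RPKM of the 5 polymerisation genes, Extl1 made up 5.79 ± 2.23% in MRC (range 3.18% to 9.07%), against 1.55 ± 0.588% in MCi (range 1.13% to 2.58%). Ext2 made up 44.4 ± 5.45% in MRC and 41.9 ± 5.80% in MCi.

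**Figure D2:**
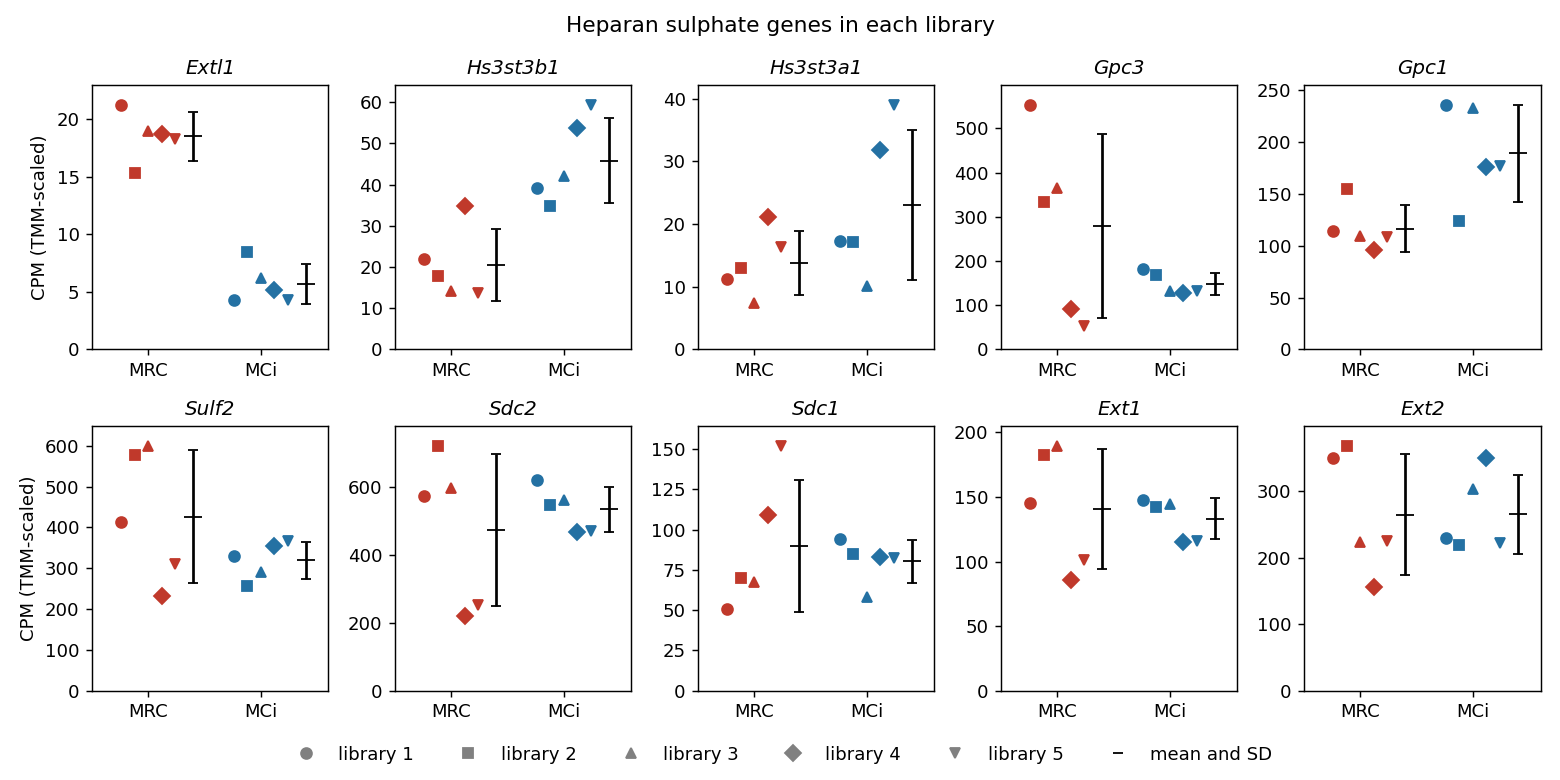
CPM of selected members in each library, MRC left and MCi right, with a marker shape for each library number and the mean and SD in black. For Extl1 every MRC library (15.3 to 21.3 CPM) is above every MCi library (4.25 to 8.42 CPM), while for Gpc3 MRC4 and MRC5 (90.5 and 52.2 CPM) lie below all MCi libraries.

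Of the 5 linker genes, 0 passed edgeR's test or DESeq2's, 0 had an unadjusted p under 0.05, and the ranges of all 5 overlapped between MRC and MCi. Of all genes, edgeR called 0.437% and DESeq2 7.16%. Ranges did not overlap in 1.1% of all genes with MRC above and in 2.69% with MRC below. Counts of 0 among 5 genes do not set them apart from those shares. Xylt1 and Xylt2 encode the xylosyltransferases that place the first sugar, and Xylt2 had 46.6, 45.1, 34.7, 43.9 and 32.8 CPM in MRC, against 55.0, 44.1, 45.9, 54.0 and 56.9 CPM in MCi. Its 2 lowest libraries were MRC5 and MRC3, the groups overlapped, and the log2 fold change was -0.33 ± 0.16 (edgeR adjusted p = 0.323). B3gat3, the glucuronyltransferase that completes the linker and the highest linker gene by RPKM, had 26.5, 28.2, 24.7, 36.0 and 23.2 CPM in MRC, against 26.8, 28.6, 19.9, 31.0 and 24.2 CPM in MCi. The ranges overlapped, at a log2 fold change of 0.089 (adjusted p = 0.864). The galactosyltransferase genes B4galt7 and B3galt6 had log2 fold changes of -0.056 and 0.15, and Xylt1 had -0.19, with adjusted p values of 0.934, 0.876 and 0.904. In B4galt7 85.6% of exon reads mapped uniquely. The log2 fold changes without MRC4 and MRC5 were -0.28 for Xylt2, 0.021 for B3gat3, 0.071 for B4galt7, 0.28 for B3galt6 and 0.27 for Xylt1, with adjusted p values from 0.567 for Xylt2 to 0.975 for B3gat3.

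Among the modification genes the lowest fold changes were those of the 3-O-sulphotransferases, with all libraries. These enzymes make a rare final modification of the chain. Hs3st3b1 (ENSMUSG00000070407 in GRCm38, chr11:63885792-63922290, minus strand) had 22.0, 17.9, 14.2, 34.8 and 13.7 CPM in MRC, against 39.2, 34.8, 42.1, 53.6 and 59.4 CPM in MCi. All MRC libraries were below all MCi libraries, but the highest MRC library, MRC4, was level with the lowest MCi library, MCi2, to 3 digits. Group means were 20.5 ± 8.65 CPM in MRC and 45.8 ± 10.3 CPM in MCi (SD, n = 5 each). With all 10 libraries the log2 fold change was -1.16 ± 0.28 and did not pass edgeR's test (adjusted p = 0.113). DESeq2 called it in the same libraries (adjusted p = 0.00781). Without MRC4 and MRC5 it fell by 1.35 ± 0.24 on the log2 scale (edgeR adjusted p = 0.0255). That call was lost without MRC1 (adjusted p = 0.0607), MRC2 (0.146), MRC3 (0.107), MCi4 (0.0663) or MCi5 (0.0506). In replicates 1 to 3 of both groups alone, the log2 fold change of Hs3st3b1 was -1.10 and did not pass (edgeR adjusted p = 0.0783).

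Hs3st3a1, a close paralogue whose enzyme makes the same kind of modification, lies on the same chromosome with a gap of 513 kb and 5 listed genes between them. It had 11.2, 13.0, 7.43, 21.1 and 16.3 CPM in MRC, against 17.3, 17.1, 10.1, 31.9 and 39.1 CPM in MCi. The groups overlapped, and the 2 highest libraries were MCi4 and MCi5. The log2 fold change was -0.74 ± 0.39 (edgeR adjusted p = 0.374), and -1.14 without MRC4 and MRC5 (adjusted p = 0.313). In replicates 1 to 3 of both groups alone it was -0.49 (edgeR adjusted p = 0.785). In this gene 79.4% of exon reads mapped uniquely, against 98.0% in Hs3st3b1, so its count is less certain. Hs3st1, the enzyme known for the antithrombin-binding site, had means of 34.3 ± 10.3 CPM in MRC, against 46.1 ± 16.8 CPM in MCi, a log2 fold change of -0.43 ± 0.28 (adjusted p = 0.481), and -0.33 without MRC4 and MRC5 (adjusted p = 0.754). The summed RPKM of these 3 genes was 19.9 ± 5.10 in MRC and 36.6 ± 8.59 in MCi. These values are not scaled between groups, so the sums give the level within each group and no fold change.

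The modification steps that act earlier on the chain did not pass the test. Ndst1, the main N-deacetylase and N-sulphotransferase of most tissues and the highest modification gene in MRC and MCi by RPKM, had 194, 176, 166, 88.9 and 91.4 CPM in MRC, against 161, 113, 178, 132 and 132 CPM in MCi. MRC4 and MRC5 were the lowest and MRC1 was the highest of the 10. The log2 fold change was 0.0042 ± 0.25 (edgeR adjusted p = 0.996), and 0.33 without MRC4 and MRC5 (adjusted p = 0.502). It was -0.011 for Ndst2, 0.32 for the epimerase gene Glce, -0.18 for the 2-O-sulphotransferase gene Hs2st1 and -0.075 for the 6-O-sulphotransferase gene Hs6st1, with adjusted p values of 0.992, 0.538, 0.655 and 0.897. Leaving out MRC4 and MRC5 gave 0.0024 for Ndst2, 0.40 for Glce, -0.0098 for Hs2st1 and -0.22 for Hs6st1, with adjusted p values of 0.999, 0.582, 0.985 and 0.756. One isozyme dominated the 6-O-sulphotransferases, with Hs6st1 at 99.8% of the family's summed RPKM in MRC and 99.1% in MCi. In Hs6st1 73.5% of exon reads mapped uniquely, so its count is less certain. Ndst3 was near the floor, with 0 to 8.12 CPM in MRC and 1.80 to 8.38 CPM in MCi. Its log2 fold change was -0.23 with all libraries (adjusted p = 0.928) and 0.22 without MRC4 and MRC5 (adjusted p = 0.929).

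Of the extracellular editing genes, Sulf2 was the one with the largest difference in MRC1 to MRC3. Sulf1 and Sulf2 encode endosulfatases that remove 6-O-sulphate from finished chains. Sulf2 had 414, 578, 600, 231 and 310 CPM in MRC, against 331, 255, 291, 354 and 366 CPM in MCi. MRC1 to MRC3 were above all MCi libraries, MRC5 lay among them, and MRC4 was the lowest of the 10. The log2 fold change was 0.42 ± 0.27 over all libraries (edgeR adjusted p = 0.477) and 0.73 ± 0.18 without MRC4 and MRC5 (adjusted p = 0.0934 by edgeR and 0.00357 by DESeq2). Sulf2 overlaps Ncoa3 on the other strand, which had 2940 exon reads over the 10 libraries. The library kit does not mark strand, so reads in the overlap cannot be told apart.

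Sulf1 had 181, 264, 200, 207 and 88.4 CPM in MRC, against 186, 210, 280, 220 and 210 CPM in MCi. Its groups overlapped, with MRC5 alone far below, and the log2 difference was -0.23 ± 0.26 (edgeR adjusted p = 0.714), and -0.038 without MRC4 and MRC5 (adjusted p = 0.955). Hpse, the heparanase gene, had means of 102 ± 20.5 CPM in MRC, against 90.6 ± 37.1 CPM in MCi, a log2 fold change of 0.16 ± 0.27 (adjusted p = 0.824), and 0.20 without MRC4 and MRC5 (adjusted p = 0.848). In MCi the values of Hpse were 66.7, 62.3, 62.2, 125 and 137 CPM, with MCi4 and MCi5 above the others.

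Among the glypicans, Gpc3 was higher than in MCi in MRC1 to MRC3 and lower in MRC4 and MRC5. Gpc3, a glypican known for binding hedgehog ligands and restraining growth, lies at chrX:52272426-52613950 on the minus strand, and its neighbour Gpc4 follows after a gap of 107 kb with no listed gene between. Gpc3 had 554, 333, 366, 90.5 and 52.2 CPM in MRC, against 182, 169, 132, 128 and 132 CPM in MCi. MRC1 to MRC3 were above every MCi library and MRC4 and MRC5 were below every one. With all 10 libraries the means were 279 ± 208 CPM in MRC, against 149 ± 24.8 CPM in MCi, and the log2 fold change of 0.91 ± 0.54 did not pass edgeR's test (adjusted p = 0.430). Without MRC4 and MRC5, Gpc3 rose by 1.49 ± 0.20 on the log2 scale (adjusted p = 0.00709), with 418 ± 119 CPM in the 3 MRC libraries, 2.81 times the MCi mean. It stayed past the threshold when each of those 8 libraries was left out in turn (adjusted p 0.0115 to 0.0303). Replicates 4 and 5 alone gave -0.92 (adjusted p = 0.0749).

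Gpc1, a glypican of many mesenchymal cells, had 114, 155, 109, 95.6 and 108 CPM in MRC, against 236, 124, 233, 176 and 177 CPM in MCi. All MRC libraries but MRC2 were below all MCi libraries, and MCi2 was the MCi library within the MRC range. The log2 fold change was -0.70 ± 0.21, which did not pass edgeR's test (adjusted p = 0.179), and DESeq2 gave an adjusted p of 0.0361. Without MRC4 and MRC5 it was -0.58 (edgeR adjusted p = 0.318). Gpc4 had means of 55.8 ± 6.26 CPM in MRC, against 61.0 ± 11.7 CPM in MCi, and its log2 difference was -0.13 (adjusted p = 0.765), and -0.094 without MRC4 and MRC5 (adjusted p = 0.893).

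Gpc6, a glypican of the same subfamily as Gpc4, had 178, 231, 198, 70.8 and 56.8 CPM in MRC, against 175, 150, 158, 134 and 167 CPM in MCi. Its 3 highest libraries were MRC1 to MRC3 and its 2 lowest MRC4 and MRC5, as for Gpc3. Its log2 fold change was -0.093 with all libraries (edgeR adjusted p = 0.932) and 0.37 without MRC4 and MRC5 (adjusted p = 0.325). In replicates 4 and 5 alone, 2 libraries a group, the log2 fold change of Gpc6 was -1.30 (edgeR adjusted p = 0.0105). That fit called 1407 genes lower in MRC and 2053 higher. As a share of the summed RPKM of the glypicans, Gpc3 made up 55.6 ± 19.6% in MRC (range 29.0% to 76.3%), against 42.1 ± 6.48% in MCi (range 34.9% to 52.2%). Gpc1 made up 17.7 ± 9.53% in MRC and 27.6 ± 4.53% in MCi.

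Syndecans carry most of the surface heparan sulphate of many cells. With all libraries 3 of the 4 had fold changes below 0, as did 49.0% of all genes. Without MRC4 and MRC5 it was also 3 of the 4, against 50.9% of all genes, but Sdc2 was above 0 in place of Sdc1. None of the 4 passed edgeR's or DESeq2's test with all libraries, where 0.437% and 7.16% of all genes did. Counts among 4 genes do not set them apart from those shares. Sdc4, the syndecan of focal adhesions, had 96.7, 114, 98.7, 95.1 and 117 CPM in MRC, against 143, 151, 127, 125 and 116 CPM in MCi. The groups touched at a single pair of libraries, MRC5 and MCi5, and the log2 fold change was -0.34 ± 0.14 (edgeR adjusted p = 0.256), and -0.36 without MRC4 and MRC5 (adjusted p = 0.339). Sdc3 had 103, 150, 156, 92.2 and 55.4 CPM in MRC, against 141, 129, 213, 188 and 187 CPM in MCi. The 3 lowest libraries were MRC and the 3 highest were MCi, at a log2 fold change of -0.63 ± 0.28 (adjusted p = 0.287), and -0.33 without MRC4 and MRC5 (adjusted p = 0.593). Only 57.7% of Sdc3 exon reads were unique, and unique reads alone gave -0.61.

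Sdc2 had 574, 721, 596, 221 and 252 CPM in MRC, against 621, 547, 562, 466 and 471 CPM in MCi. MRC4 and MRC5 were the lowest of the 10, and the log2 difference was -0.17 ± 0.32 over all libraries (edgeR adjusted p = 0.846) and 0.24 without them (adjusted p = 0.613). Sdc1, known as the epithelial and plasma cell syndecan, ran the other way, with 109 and 152 CPM in MRC4 and MRC5, against 50.9, 69.9 and 67.3 CPM in MRC1 to MRC3 and 57.9 to 93.9 CPM in MCi. Its log2 fold change was 0.16 ± 0.28 with those libraries (adjusted p = 0.836) and -0.36 without them (adjusted p = 0.502). Epithelial genes summed to 16977 and 21238 CPM in the same 2 libraries, and their part in the Sdc1 level was not tested. Sdc2 made up 60.1 ± 14.1% of the syndecan RPKM in MRC (range 44.4% to 71.6%), against 61.1 ± 2.60% in MCi. Sdc1 made up 12.2 ± 8.49% in MRC and 8.08 ± 1.40% in MCi.

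**Figure D3:**
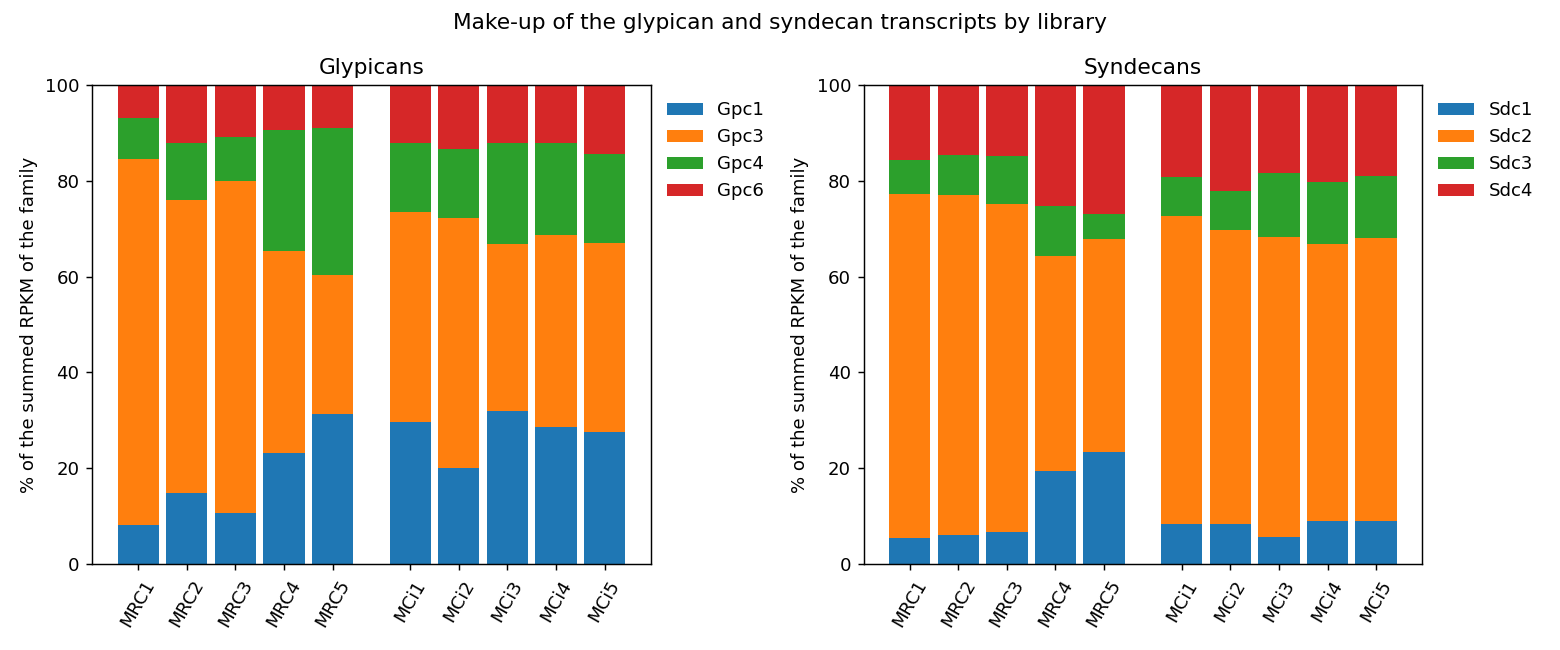
Share of each member in the summed RPKM of its family, as a percentage, in each library, MRC left and MCi right as stacked bars, for the glypicans and syndecans that reach 1% in some library. The Sdc2 share spans 44.4% to 71.6% in MRC, and the Gpc3 share spans 29.0% to 76.3% in MRC against 34.9% to 52.2% in MCi.

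Counted over the 29 tested members other than Extl1, edgeR's quasi-likelihood test with Benjamini-Hochberg adjustment called 0 genes in 5 MRC against 5 MCi libraries, where it called 0.437% of all 12127 genes (0.0742% higher and 0.363% lower in MRC). At an unadjusted p under 0.05 there were 4 such members (Hs3st3b1, Gpc1, Sdc3 and Sdc4), against 16.7% of all genes. DESeq2 called 2, Hs3st3b1 and Gpc1, both lower in MRC, against 2.53% of all genes lower and 7.16% in either direction in that fit. Fold changes were above 0 for 9 members and below 0 for 20, with a median of -0.13, where 49.0% of all genes were below 0 and the median of all genes was 0.010. In 1 member, Hs3st3b1, every MRC library was below every MCi library, which held for 2.69% of all genes, and in 0 members other than Extl1 was every MRC library above, which held for 1.1%.

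Without MRC4 and MRC5, edgeR called 2 of the 29, Gpc3 higher (as were 0.379% of all genes) and Hs3st3b1 lower (as were 0.653%), against 1.03% of all genes in either direction. DESeq2 called Sulf2 as well, which made 2 higher and 1 lower, against 1.88% of all genes higher, 2.49% lower and 4.38% in either direction. Fold changes were then above 0 for 16 members and below 0 for 13, with a median of 0.021, where 50.9% of all genes were below 0 and the median of all genes was -0.0086. The 3 remaining MRC libraries lay above all MCi libraries for Gpc3, Gpc6 and Sulf2, against 4.62% of all genes, and below all of them for Hs3st3b1 and Sdc4, against 5.07%. MRC4 and MRC5 were both below MRC1 to MRC3 in 12 of 30 tested members, which held for 28.1% of all genes. They were both above in 3 members (Hs3st3a1, Hs6st1 and Sdc1), which held for 29.0% of all genes.

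**Figure D4:**
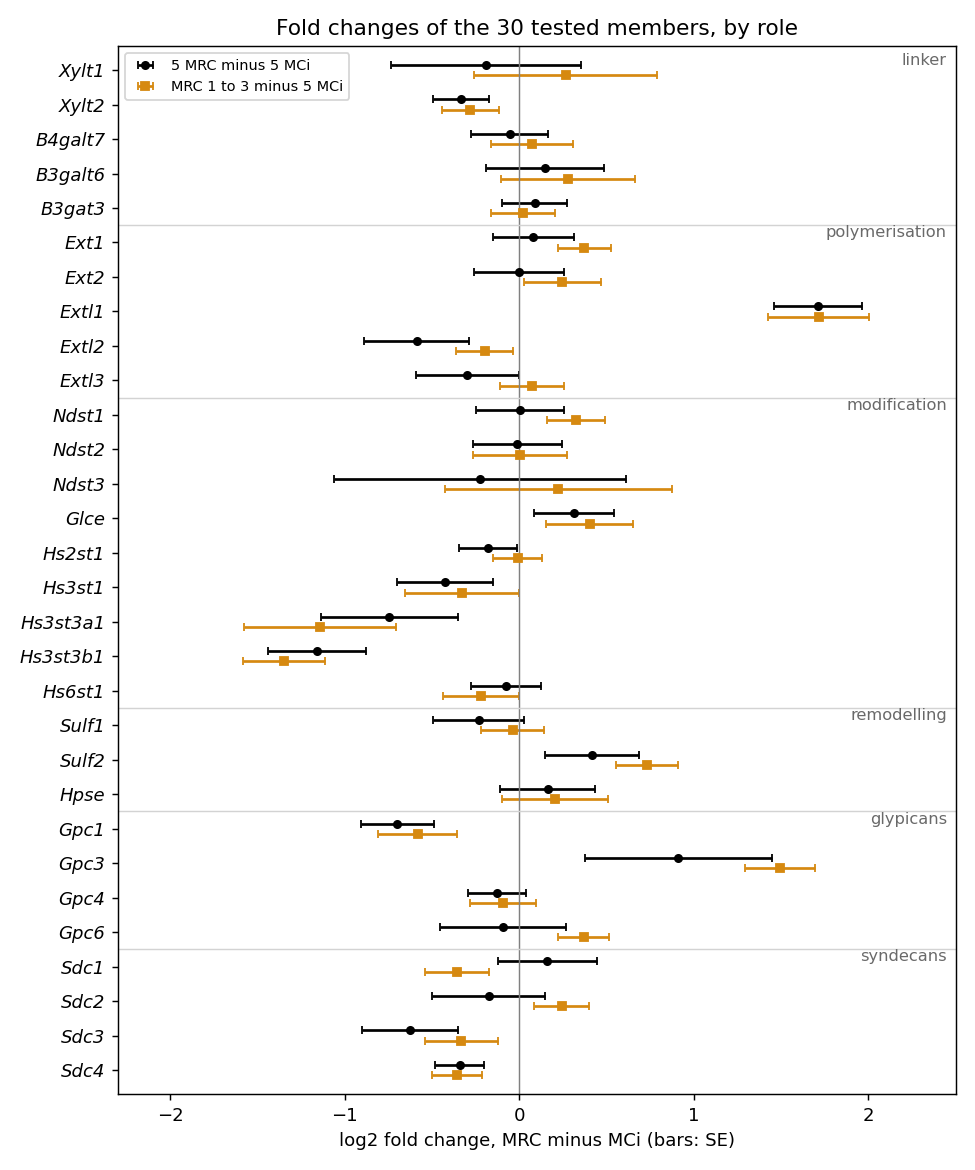
Fitted log2 fold change, MRC minus MCi, of each tested member with its standard error, for 5 MRC against 5 MCi libraries (circles) and for MRC1 to MRC3 against 5 MCi libraries (squares). Extl1 has 1.71 and 1.72 in the 2 fits, while Gpc3 has 0.91 with all libraries and 1.49 without MRC4 and MRC5.

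The wider pathway was read from 48 further genes in 6 groups, of which 43 were tested. EdgeR called 0 of them, against 0.437% of all genes, and 7 had an unadjusted edgeR p under 0.05, against 16.7% of all genes. DESeq2 called 3, all higher in MRC (as were 4.63% of all genes), and all 3 supply the precursors of chain synthesis. Papss2, which makes the sulphate donor, had 70.9, 58.3, 387, 420 and 1674 CPM in MRC, against 28.4, 31.7, 28.5, 31.6 and 33.3 CPM in MCi. Every MRC library was above every MCi library, and MRC5 was far above the other MRC libraries. Its log2 fold change was 4.09 ± 0.88 (edgeR adjusted p = 0.0874, DESeq2 adjusted p = 1.26e-06), and 2.49 without MRC4 and MRC5 (edgeR adjusted p = 0.117; DESeq2 gave no adjusted p).

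Ugdh, which makes the UDP-glucuronic acid used by the polymerases, had 157, 177, 286, 436 and 857 CPM in MRC, against 129, 119, 100.3, 115 and 106 CPM in MCi. Again the groups did not overlap and MRC4 and MRC5 were the highest. The log2 fold change was 1.75 ± 0.43 (edgeR adjusted p = 0.114, DESeq2 adjusted p = 0.00208), and 0.86 without those libraries (edgeR adjusted p = 0.0819, DESeq2 adjusted p = 0.00421). The sulphate transporter gene Slc26a2 had 49.9, 38.6, 60.9, 134 and 228 CPM in MRC, against 31.3, 41.2, 31.1, 40.6 and 31.9 CPM in MCi. Its groups overlapped through MRC2, and its log2 fold change was 1.54 ± 0.45 (edgeR adjusted p = 0.172, DESeq2 adjusted p = 0.0165). Leaving out MRC4 and MRC5 gave 0.50, and the DESeq2 call was lost (adjusted p = 0.305 by edgeR and 0.244 by DESeq2). In MRC1 to MRC5 the summed epithelial genes were 13.1, 262, 2562, 16977 and 21238 CPM. Their part in these 3 genes was not tested. Over the 10 supply genes, 8 fold changes were above 0 and 2 below, with a median of 0.28, where 49.0% of all genes were below 0. Without MRC4 and MRC5, 5 were above 0 and 5 below, where 50.9% of all genes were below 0.

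The other 5 groups held no gene past the threshold in edgeR or DESeq2 with all 10 libraries, where 0.437% and 7.16% of all genes were called. Fold changes were below 0 in 49.0% of all genes with all libraries and in 50.9% without MRC4 and MRC5. Heparanase-like Hpse2 had means of 85.5 ± 13.6 CPM in MRC, against 112 ± 14.6 CPM in MCi, and its log2 difference was -0.38 ± 0.16 (edgeR adjusted p = 0.261), and -0.25 without MRC4 and MRC5 (adjusted p = 0.567). All 4 secreted or membrane core proteins outside the syndecans and glypicans had negative fold changes, with a median of -0.42, and without MRC4 and MRC5 3 of the 4 did. Of these, Hspg2, which encodes perlecan, had -0.61 ± 0.62 (adjusted p = 0.682), and -0.015 without MRC4 and MRC5 (adjusted p = 0.992). Col18a1, which encodes a chain of a basement membrane collagen that carries heparan sulphate, had -0.57 ± 0.37 (adjusted p = 0.484), and -0.73 without those libraries (adjusted p = 0.575). Among 9 lysosomal genes 3 fold changes were above 0 and 6 below. The 2 with the smallest p were Arsg (0.77 ± 0.37, adjusted p = 0.322) and Ids (-0.30 ± 0.22, adjusted p = 0.540). Arsg had 0.59 (adjusted p = 0.553) and Ids -0.052 (adjusted p = 0.944) without MRC4 and MRC5.

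Of 15 tested chondroitin and dermatan sulphate genes, which compete for the same linker, 3 fold changes were above 0 and 12 below with all libraries. Without MRC4 and MRC5, 12 were above and 3 below. The shares of all genes below 0 in these fits were 49.0% and 50.9%. The 2 with the smallest p with all libraries were Chst11 (-1.61 ± 0.66, edgeR adjusted p = 0.259) and Chsy3 (-0.73 ± 0.39, adjusted p = 0.380). Chst11 had -1.08 (adjusted p = 0.518) and Chsy3 -0.40 (adjusted p = 0.724) without MRC4 and MRC5. Among the 3 tested shedding and trafficking genes, Sdcbp, which encodes the syndecan adaptor syntenin, had 460 to 524 CPM in MRC and 394 to 451 CPM in MCi. Its groups did not overlap, though the log2 fold change was 0.22 ± 0.14 (adjusted p = 0.473), and 0.21 without MRC4 and MRC5 (adjusted p = 0.577). Adam10, a protease known to shed surface proteins, had -0.50 ± 0.21 (adjusted p = 0.273), and -0.32 without MRC4 and MRC5 (adjusted p = 0.468).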

How the data were processed

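RNA was extracted from sorted cells with a column kit and amplified with SMART-Seq v4, per the labels' protocols. The deposited table of each library lists, per the file headers, counts of total exon reads (used for every test), unique exon reads, intron and junction reads, and RPKM. The RPKM values were made by the authors from exon length and mapped reads, per the file headers, without a scaling between groups. GRCm38 is named in the submitters' processing notes, and the aligner is not given in the sources used here. Deposited TPM values were not used.

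Genes were kept by filterByExpr (minimum count 10, minimum total 15), which left 12127. Log2 fold changes and p-values came from edgeR 4.0.16 (quasi-likelihood, robust, TMM; R 4.3.3), adjusted by Benjamini-Hochberg over all genes tested with a threshold of 0.05. SE is the log2 fold change over the square root of F. CPM uses TMM-scaled totals. Alternatives were DESeq2 1.42.0, limma 3.58.1 on log2(RPKM + 1) and log2(RPKM + 0.1), other scaling factors, filters and read columns, leaving out each library, leaving out MRC4 and MRC5, and a replicate block. The fit was tested on simulated data. There are no molecular identifiers, so the floor of 3 reads covers counting error only. No 2 libraries had identical counts.

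The members, the gene lists and the alternatives were chosen with earlier results of these data known. Values per library are given for Extl1, for members past the threshold with or without MRC4 and MRC5, and for the 2 members of smallest p and the highest member by RPKM of each role. Of the further pathway genes, the 2 of smallest p in each group are named. Further members shown per library, and Slc26a2, were added after their values were seen. One leukocyte marker was not analysed here. No library was left out for its values except where stated.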

Additional observations from a re-analysis of the deposited data

Results flagged for a closer look

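Among 60 groups of 5 libraries, 1 for each of the 30 tested members in MRC and in MCi, 2 held a library far from the other 4. Chance gives such a flag in about 1 in 20 groups. Hs3st1 had 52.1 CPM in MRC1, against 25.4 to 32.3 CPM in the other MRC libraries. Ndst3 had 8.38 CPM in MCi3, against 1.80 to 2.91 CPM in the other MCi libraries, a gene with few reads in all 10 libraries. Neither gene passed edgeR's test.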

How the results depend on the processing

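In 5 MRC against 5 MCi libraries edgeR called 53 genes, 9 higher and 44 lower in MRC. The count was 851 with DESeq2 (550 higher, 301 lower), 159 with limma on log2(RPKM + 0.1) and 244 on log2(RPKM + 1), where 11 and 15 were higher. It was 95 in replicates 1 to 3 alone and 3460 in replicates 4 and 5 alone (2053 higher, 1407 lower). It was 128 without MRC4 and MRC5 (47 higher, 81 lower), and 16 to 49 with 1 library left out. Of the members other than Extl1, 0 were called, and 2 with DESeq2, 1 with each limma scale, 1 in replicates 1 to 3 alone (Gpc3), 7 in replicates 4 and 5 alone (Extl2, Extl3, Ndst1, Gpc1, Gpc6, Sdc2 and Sdc3, all lower), 2 without MRC4 and MRC5, and 0 to 1 with 1 library left out (Hs3st3b1, without MRC4). Of the further pathway genes, 0 were called, against 3 with DESeq2 and 15 in replicates 4 and 5 alone. The shares of all genes were 0.437% by edgeR and 7.16% by DESeq2 with all libraries. They were 1.03% and 4.38% without MRC4 and MRC5. Replicates 4 and 5 alone compare 2 libraries a group. With 3460 genes called there, the 7 members and 15 pathway genes are not read as particular to the pathway. Without MRC4 and MRC5 the 2 calls became 1 to 2 with 1 library left out, 3 with DESeq2 and 3 with no filter. Ndst1 turned to -0.62 in replicates 4 and 5 alone (adjusted p = 0.0389), against 0.0042 with all libraries. Extl1 was 1.02 on log2(RPKM + 1), a scale that understates changes of low genes, and 1.65 to 1.94 with 1 library left out. On the RPKM scales the median of all genes was -0.26 and -0.21, since these values are not scaled between groups. Of 662 pairs of a setting and a member other than Extl1, 14 became calls with the sign kept and 1, Ndst1, with the sign turned, while 73 turned the sign with neither value past the threshold. The sign turned in some setting in 17 of the 30 tested members. Hs3st3b1, Gpc1 and Extl1, on which the set was selected, were among the members that kept their sign in all 23 settings. Gpc3 turned in 1. Except where a value or construction is named, the cause was not tested. Members near the floor (Ndst3, Xylt1) are limited by depth.

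Replicate numbers are shared by the groups, but libraries of the same number deviated together in only part of the pairs (correlations 0.56, -0.25, 0.062, 0.35 and 0.49), so the numbers were not taken to pair them, and MRC2 correlated best with MCi3 (0.50). With a replicate block 49 genes were called (15 higher, 34 lower), and 0 members and 0 further pathway genes. Without MRC4 and MRC5 the block left 1 member, Gpc3 (adjusted p = 0.0374), and Hs3st3b1 was at 0.147.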

Other observations

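Of the 3-O-sulphotransferase genes outside the main list, Hs3st6 had 2.15, 1.55, 1.09, 7.56 and 6.95 CPM in MRC, against 6.31, 2.66, 6.46, 6.09 and 5.29 CPM in MCi. MRC1 to MRC3 were below every MCi library, and MRC4 and MRC5 were above every one. Its log2 fold change was -0.45 ± 0.56 (edgeR adjusted p = 0.746) with all libraries and -1.73 without MRC4 and MRC5 (adjusted p = 0.150 by edgeR and 0.0393 by DESeq2). In that fit DESeq2 called 2.49% of all genes lower and 4.38% in either direction. MRC1 to MRC3 held 9, 6 and 5 exon reads of Hs3st6, so these values are limited by depth. Hs3st5, below the read filter, had 2.83 and 1.59 CPM in MRC4 and MRC5, 0 CPM in MRC1 to MRC3, and 0 to 0.311 CPM in MCi.

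Col18a1 had 1010, 1356, 1214, 1326 and 1795 CPM in MRC, against 1128, 1066, 1270, 3257 and 3201 CPM in MCi. The 2 high MCi libraries, MCi4 and MCi5, also had the highest mesothelial sums, at 770 and 817 CPM, against 19.1 to 122 CPM in MCi1 to MCi3. The part of mesothelial RNA in the Col18a1 level was not tested.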
